A study of Danio rerio with 18 samples.

Results

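The tubulin genes of larval zebrafish were described here with *tuba8l3* (ENSDARG00000070155), an alpha tubulin gene, at the centre. Its mRNA in keratinocyte ribosome pull-downs was about 5-fold higher from larvae with oncogenic HRasG12V in keratinocytes than from larvae with unmutated HRas. The set was chosen from the HRasG12V comparison in keratinocytes itself. *tuba8l3* and *tuba8l2* (ENSDARG00000031164) were taken by identifier, and 8 further alpha and beta tubulin names were looked up by symbol or RefSeq synonym. The 10 names matched 11 of the 31953 genes in the tables, because *tubb2b* is the symbol of 2 genes and *tuba8l* is a RefSeq synonym of the gene listed as *tuba5* (ENSDARG00000042708). The *tubb2b* genes are called *tubb2b-39522* (ENSDARG00000039522) and *tubb2b-98591* (ENSDARG00000098591) after the last digits of their identifiers. A further 11 genes with tubulin names served as background. They hold gamma, delta and epsilon tubulins as well as other alpha and beta tubulins, most of them weakly expressed.

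Translating ribosome affinity purification (TRAP) pulls down ribosomes that carry an EGFP-tagged L10a subunit, together with the mRNAs they hold, from whole larvae. All larvae were 3 days post-fertilization and were injected with a Tol2 construct in which the *krt4* promoter, active in keratinocytes, drives a red fluorescent HRas fusion. The construct carried constitutively active HRasG12V in one set of larvae and unmutated HRas in the HRas control larvae, so every library comes from larvae with extra HRas in keratinocytes. For keratinocyte libraries, wild-type embryos also received a plasmid with *krt4*-driven EGFP-L10a. For neutrophil and macrophage libraries, the tag came from the lines Tg(LyzC:EGFP-L10a) and Tg(mpeg1:EGFP-L10a). Injected larvae carry such constructs in a mosaic of cells, and each library pooled about 50 larvae. Each of the 6 groups had 3 libraries, 1 from each of 3 collection batches that the labels number. Macrophage HRas control replicate 3 was left out beforehand, by the rule that chose the set, so that 17 of 18 libraries and 2 macrophage HRas control libraries remained. It held 16990 expected counts in all, over 1029 genes detected. Of these, 2 fell on *tuba1a*, 1 on *tubb5* and 0 on the other 9 genes of the set.

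Microtubules are hollow polymers of alpha and beta tubulin heterodimers, which the chaperonin CCT and a set of tubulin cofactors fold and assemble, and gamma tubulin seeds new polymers at centrosomes. Vertebrates carry several genes for each subunit, called isotypes, whose proteins are very alike in sequence. The isotypes *tuba1a* and *tubb2b* are best known from neurons, in which growing axons need large amounts of tubulin. In zebrafish *tubb5* is known from neural progenitors, and the mammalian counterpart of *tubb4b* is made in many tissues and in cilia. The genes named *tuba8l* are called so for their likeness to mammalian *TUBA8*. In keratinocytes microtubules carry vesicles and adhesion proteins towards the cell margin and form the mitotic spindle.

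The total expected count of the 17 libraries lay between 6206924 and 14781123, with a median of 8371955. Of these, 72.9% to 94.7% fell on the 10 most abundant features of the library, and 385201 to 2577036 counts remained for all other genes. Levels are expected counts scaled to library size by the TMM method (CPM) unless given per kilobase (CPM per kb) of the effective length that RSEM estimated, which is the only scale on which levels of different genes are set side by side. Of 16011 genes that passed the filter on low counts, all 11 genes of the set and 9 of the 11 other tubulin genes were tested. Markers of the targeted cell types were compared among the pull-downs. *krt4* had between 2032 and 3491 CPM in keratinocyte libraries, against 550.3 to 1207 CPM in neutrophil and 893 to 2028 CPM in macrophage libraries, so keratinocyte mRNA was also present in both leukocyte pull-downs. *lyz* had 2.08 to 46.3 CPM in neutrophil libraries, against 0 to 1.13 CPM in keratinocyte and 0 to 2.76 CPM in macrophage libraries. The neutrophil and macrophage ranges of *lyz* thus overlapped at the lowest neutrophil library. The neutrophil list as a whole did not separate the leukocytes, with a sum of 4.94 to 74.2 CPM in neutrophil and 11.5 to 26.8 CPM in macrophage libraries. The sum of 4.94 CPM belonged to neutrophil HRas control replicate 3, with 5 of 11 listed genes detected. It lay below every macrophage library and below the 6.95 to 14.9 CPM of HRasG12V keratinocytes. This library also had the fewest genes detected of the 17 (14796), and its enrichment for neutrophils is not shown by this list. Of its 9 tested genes, 2 were called higher and 3 lower in neutrophils than in macrophages. *NCF1*, an NADPH oxidase subunit gene, was lower (log2 difference −1.69, adjusted p = 0.00215, the quasi-likelihood test of edgeR). The study itself shows *ncf1* with its macrophage genes, so the list is not limited to genes that the study assigned to neutrophils. *irf8* had 1.51 to 13.3 CPM in macrophage libraries, against 0 to 0.124 CPM in neutrophil and 0 to 0.704 CPM in keratinocyte libraries.

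Neutrophil HRas control replicate 2 stood apart in its tubulin genes. In this library 3 of the 11 genes of the set and 6 of the 11 other tubulin genes were over 3-fold higher than in every other neutrophil library, with at least 20 counts. No tubulin gene met that rule in any of the other 5 neutrophil libraries. Over all tested genes, 85 (0.531%) met it in this library, against 7 to 38 genes in each of the other neutrophil libraries. *tuba8l2* had 158 CPM there and 2.60 to 12.9 CPM in the other 5 neutrophil libraries. *tuba1b* had 56.3 CPM there against 5.62 to 12.2 CPM, and *tubb2b-39522* had 31.4 CPM there against 4.09 to 6.72 CPM. Among the other tubulin genes *tubb4bl* had 49.2 CPM in this library and at most 7.49 CPM in the others. *tuba8l5* had 20.8 CPM there and at most 2.58 CPM elsewhere in neutrophils, and *tuba4l* had 20.2 CPM and at most 0.404 CPM. *tuba7l* had 15.4 CPM there and at most 0.247 CPM in the others. The abundant isotype *tuba1c* had 275 CPM in this library, inside the 196 to 309 CPM of the other neutrophil libraries. The neuronal genes listed summed to 968 CPM there and 976 to 1379 CPM in the other neutrophil libraries, whereas the genes for tubulin folding summed to 331 CPM there and 162 to 227 CPM in the others. Several results in neutrophils are therefore also given without this library, and the others include it.

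**Figure D1:**
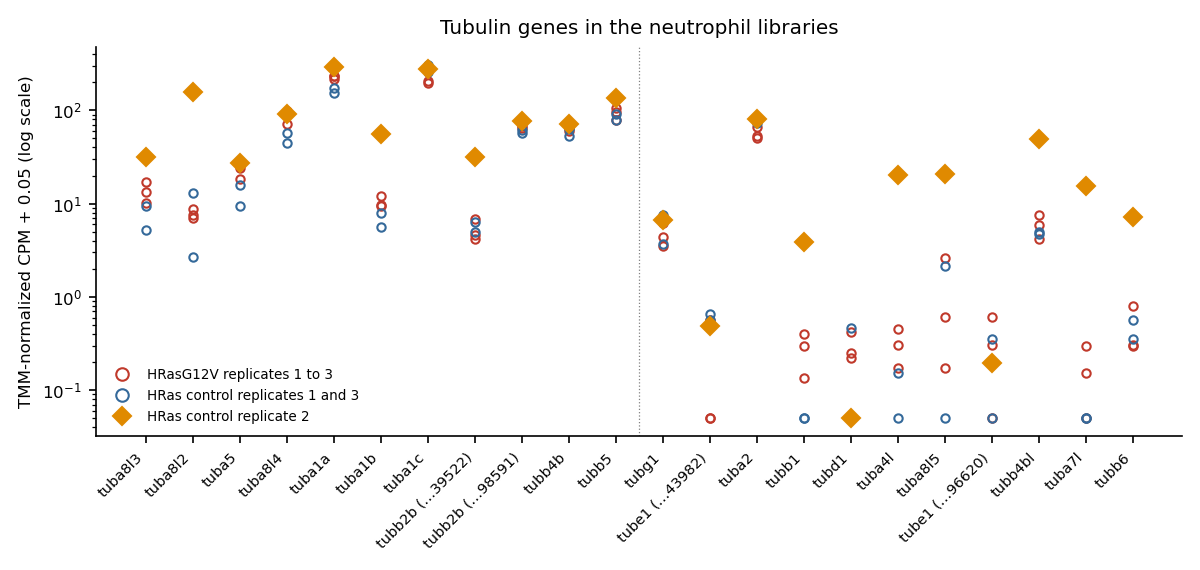
TMM-normalized CPM plus 0.05, on a log scale, of 22 tubulin genes in the 6 neutrophil libraries, with the 11 genes of the set left of the dotted line. The orange diamond, HRas control replicate 2, lies far above the circles of the other 5 libraries for *tuba8l2* (158 CPM), *tuba1b* (56.3 CPM), *tubb2b-39522* (31.4 CPM) and several weakly expressed tubulins, but not for *tuba1c* or *tubb4b*.

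In keratinocytes *tuba8l3* was higher with HRasG12V in every batch. Its level was 16.8, 33.2 and 17.4 CPM in HRasG12V replicates 1 to 3, against 2.08, 6.22 and 4.89 CPM in HRas control replicates 1 to 3. These rest on 119, 109 and 248 expected counts in the HRasG12V libraries and on 9.84, 22.0 and 35 expected counts in the HRas control libraries, so the control level is the less certain of the 2. The groups did not overlap, and the lowest HRasG12V library lay well above the highest control library. The mean was 22.4 ± 9.30 CPM with HRasG12V and 4.40 ± 2.11 CPM with HRas control (SD, n = 3 each). The fitted log2 difference was 2.32 (SE 0.417), a fold of 4.99. Within batches 1, 2 and 3 the difference of log2(CPM + 0.5) was 2.74, 2.32 and 1.73. Since the gene was chosen on this contrast, these values are a description and carry no test.

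**Figure D2:**
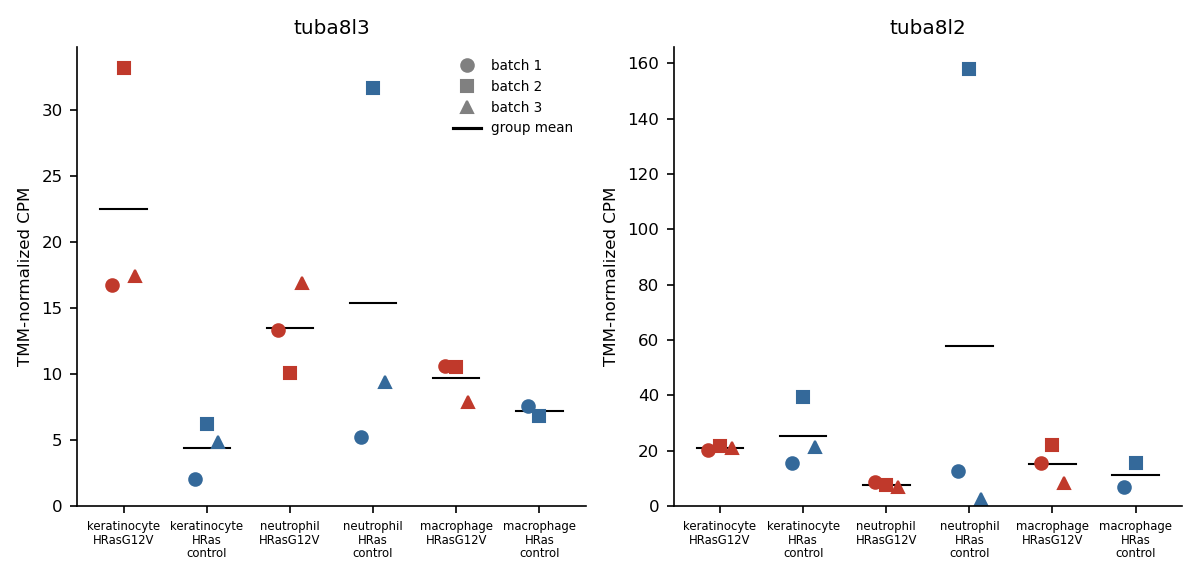
TMM-normalized CPM of *tuba8l3* (left) and *tuba8l2* (right) in each of the 17 libraries, by cell type and construct, with symbols for the batch and a line at the group mean. For *tuba8l3* the 3 keratinocyte HRasG12V libraries (16.8 to 33.2 CPM) lie above the 3 keratinocyte HRas control libraries (2.08 to 6.22 CPM), and for *tuba8l2* they do not (20.4 to 21.6 against 15.6 to 39.6 CPM).

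None of the other genes named for *TUBA8* separated the constructs in keratinocytes. *tuba8l2* had 20.4, 21.6 and 20.9 CPM in HRasG12V keratinocytes, against 15.6, 39.6 and 21.4 CPM in HRas control keratinocytes, a log2 difference of −0.08 (SE 0.512). The HRasG12V libraries of *tuba8l2* lay close together and inside the range of the controls. *tuba8l4* (ENSDARG00000006260) had 79.2, 76.7 and 63.7 CPM with HRasG12V and 45.2, 70.7 and 44.8 CPM with HRas control, a log2 difference of 0.48 (SE 0.246). It was higher with HRasG12V in each batch, by 0.80, 0.12 and 0.50 on the log2(CPM + 0.5) scale, but the groups overlapped. *tuba5* had 32.0, 24.1 and 21.9 CPM with HRasG12V and 26.7, 27.7 and 18.01 CPM with HRas control, with a log2 difference of 0.15 (SE 0.252) and overlapping groups. *tuba8l5*, outside the set, had a log2 difference of 2.05 with a wide error (SE 1.41), as it rests on at most 13.2 expected counts in a keratinocyte library, and its groups overlapped.

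The *tuba1* genes, of which *tuba1a* is best known from neurons, did not separate the constructs in keratinocytes either. *tuba1a* (ENSDARG00000001889) had 107, 95.6 and 114 CPM with HRasG12V and 87.5, 97.6 and 123 CPM with HRas control, a log2 difference of 0.04 (SE 0.244). *tuba1c* (ENSDARG00000055216) had 64.0, 46.0 and 96.3 CPM with HRasG12V and 93.4, 68.5 and 92.7 CPM with HRas control. It was the gene of the set with the most negative difference, at −0.33 (SE 0.246), and its groups overlapped. *tuba1b* (ENSDARG00000045367) was a minor isotype, with 10.99, 9.74 and 9.68 CPM with HRasG12V and 11.3, 4.81 and 8.79 CPM with HRas control, and its difference of 0.24 (SE 0.452) turned to −0.23 without HRas control replicate 2.

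Among the beta tubulins, *tubb4b* (ENSDARG00000002344) was the other gene whose groups did not overlap in keratinocytes. It had 64.8, 50.2 and 43.7 CPM with HRasG12V, against 39.6, 31.1 and 29.9 CPM with HRas control. The log2 difference was 0.65 (SE 0.235), and within batches it was 0.70, 0.68 and 0.54. *tubb5* (ENSDARG00000037997) had 57.1, 40.5 and 52.0 CPM with HRasG12V and 31.1, 31.7 and 56.3 CPM with HRas control, where control replicate 3 alone lay among the HRasG12V values. Its log2 difference was 0.34 (SE 0.276) over all libraries and 0.76 without HRas control replicate 3. *tubb2b-98591* had 34.8, 22.8 and 33.9 CPM with HRasG12V and 21.3, 36.2 and 23.9 CPM with HRas control (log2 difference 0.23, SE 0.267). *tubb2b-39522* was near the lower limit of detection in keratinocytes, with 2.68, 2.74 and 4.49 CPM with HRasG12V and 2.92, 2.83 and 2.37 CPM with HRas control, on 9 to 64.0 expected counts. Its difference was 0.40 (SE 0.518), and −0.17 without HRasG12V replicate 3.

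**Figure D3:**
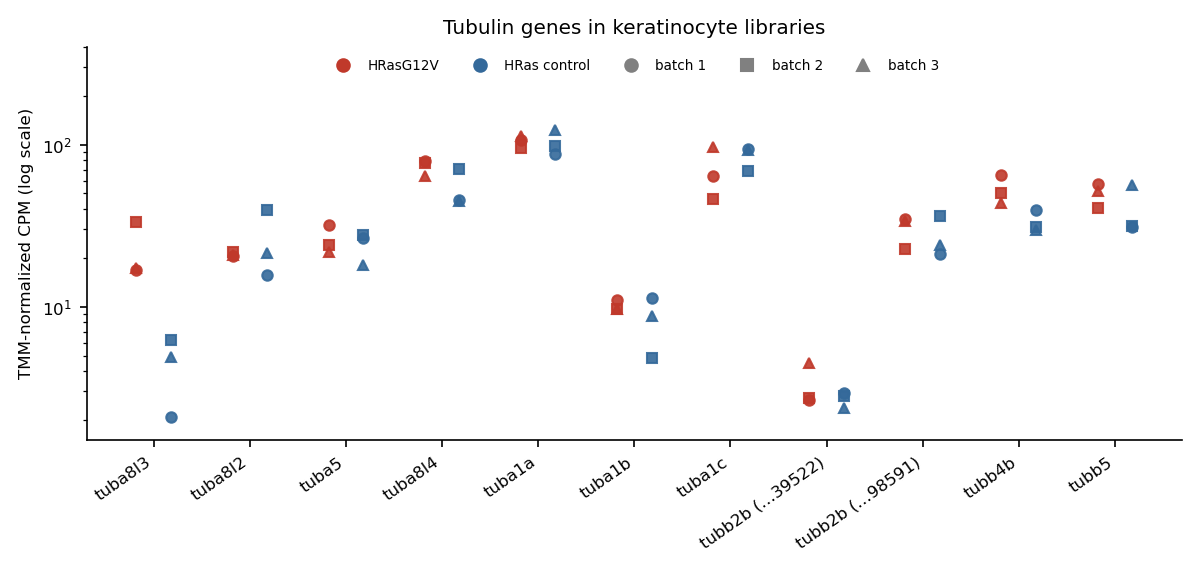
TMM-normalized CPM, on a log scale, of the 11 tubulin genes in the 3 HRasG12V (red) and 3 HRas control (blue) keratinocyte libraries, with symbols for the batch. The constructs separate for *tuba8l3* and *tubb4b*, and the values of the other 9 genes overlap.

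In all, 9 of the 11 genes had a positive difference and 2 a negative one, with a median log2 difference of 0.24 against 0.01 over all tested genes. The groups did not overlap for 2 genes, both higher with HRasG12V, and 6.75% of all tested genes were higher without overlap in this comparison, against 5.02% that were lower. Nothing is read from these counts, as the genes were chosen on this contrast. Across all genes, the quasi-likelihood test of edgeR called 41 genes higher (0.256%) and 1 lower (0.00625%) in HRasG12V keratinocytes at an adjusted p of at most 0.05. Leaving out each library in turn gave a log2 difference of *tuba8l3* between 2.06 and 2.57.

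Per length, *tuba8l3* was a minor part of the alpha tubulin mRNA in both constructs. The summed alpha tubulins had 228 ± 12.8 CPM per kb in HRasG12V keratinocytes and 210 ± 14.1 CPM per kb in HRas control keratinocytes (SD, n = 3 each). *tuba8l3* made up 4.98% to 10.7% of this sum with HRasG12V, against 0.74% to 1.96% with HRas control. *tuba1a* was on average the leading alpha isotype with both constructs, with 32.2% ± 1.05 of the sum in HRasG12V libraries and 34.0% ± 4.65 in HRas control libraries. *tuba1c* held 18.9% ± 6.12 with HRasG12V and 25.8% ± 5.40 with HRas control, and *tuba8l4* held 22.1% ± 3.25 with HRasG12V and 17.4% ± 4.24 with HRas control. The summed beta tubulins had 83.9 ± 13.8 CPM per kb with HRasG12V and 65.4 ± 4.0 CPM per kb with HRas control, and *tubb4b* held 41.8% ± 6.09 of the sum with HRasG12V and 35% ± 7.05 with HRas control. Alpha and beta sums differ in how many genes the tables hold, so their ratio is not a ratio of subunits. In these pooled pull-downs, more tagged cells of a kind and more ribosome-bound mRNA per cell cannot be told apart.

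Genes of other tissues moved in the same libraries. Skeletal muscle genes summed to 2628, 3093 and 2393 CPM in HRasG12V keratinocyte replicates 1 to 3, against 1232, 1102 and 745 CPM in HRas control replicates. Of 22 muscle genes tested, 12 were called higher and 0 lower in HRasG12V keratinocytes. The muscle creatine kinase gene *ckmb* had a log2 difference of 2.31 (SE 0.282, adjusted p = 1.27e-05, the quasi-likelihood test of edgeR), and *MYL1*, a myosin light chain, had 2.25 (SE 0.289, adjusted p = 1.38e-05, same test). The part of this muscle signal in the *tuba8l3* values was not tested. In neutrophil libraries the muscle sum ranged from 353 to 2502 CPM and *tuba8l3* from 5.21 to 31.7 CPM, and how the 2 relate was not tested. Keratinocyte genes summed to 4645 to 4888 CPM with HRasG12V and 4198 to 7235 CPM with HRas control, and 0 of 22 were called, with 4 at an unadjusted p under 0.05. Neuronal genes summed to 480.3 to 649 CPM with HRasG12V and 597 to 715 CPM with HRas control, with 0 of 21 called in either direction and a median log2 difference of −0.20. No gene was called among 21 photoreceptor, 9 neutrophil, 16 macrophage and 6 erythroid genes tested in keratinocytes. At an unadjusted p under 0.05 there were 4 photoreceptor and 3 macrophage genes. Photoreceptor genes summed to 93.1 to 117.5 CPM with HRasG12V and 109.8 to 201.5 CPM with HRas control, with overlap and a median log2 difference of −0.40. Neutrophil genes summed to 6.95 to 14.9 CPM with HRasG12V and 1.70 to 4.59 CPM with HRas control, with 3 of 9 at an unadjusted p under 0.05. Erythroid genes summed to 19.8 to 23.4 CPM with HRasG12V and 10.8 to 18.7 CPM with HRas control, with 0 of 6 under that p. The neutrophil and erythroid sums did not overlap between constructs. The part of any of these lists in the *tuba8l3* values was not tested.

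The genes for folding tubulin had mostly positive differences in keratinocytes, but none of them passed the test. Of 22 genes for CCT subunits, prefoldins, cofactors and related factors, 20 had a positive difference, with a median of 0.61 against 0.01 over all genes, and 0 were called although 8 had an unadjusted p under 0.05. Their summed level was 156 to 224 CPM in HRasG12V libraries and 119 to 138 CPM in HRas control libraries, with no overlap. The CCT subunit gene *CCT3* had a log2 difference of 0.55 (SE 0.253, adjusted p = 0.651, the quasi-likelihood test of edgeR), and *CCT7* had 0.64 (SE 0.294, adjusted p = 0.651, same test). Genes for microtubule nucleation and ends had a median of 0.02, those for microtubule-associated proteins and motors −0.10 and those for tubulin-modifying enzymes −0.26, with 0 of 17, 0 of 14 and 0 of 15 called and 0, 0 and 1 of them at an unadjusted p under 0.05. The gamma tubulin gene *tubg1* (listed as TUBG1, ENSDARG00000015610) had 2.54, 1.83 and 2.81 CPM with HRasG12V and 5.42, 6.51 and 2.09 CPM with HRas control, and the groups overlapped.

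In neutrophils, *tuba8l3* showed no change in larvae with HRasG12V keratinocytes that the test could call. It had 13.35, 10.1 and 16.9 CPM in neutrophils with HRasG12V, against 5.21, 31.7 and 9.36 CPM with HRas control. Control replicate 2 was the highest neutrophil library and the other controls lay below every HRasG12V library. The log2 difference was 0.01 (95% interval −0.74 to 0.76, adjusted p = 0.999, the quasi-likelihood test of edgeR). Without HRas control replicate 2 it was 0.87 (adjusted p = 0.438, same test), and over all 26 alternatives the adjusted p lay between 0.438 and 1. Batch by batch the difference of log2(CPM + 0.5) was 1.28, −1.60 and 0.82, so batch 2 alone was negative.

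*tuba8l2* in neutrophils depended on that same library. It had 8.78, 7.52 and 6.91 CPM with HRasG12V and 12.9, 158 and 2.60 CPM with HRas control, so the HRasG12V libraries lay inside the control range. The log2 difference of −2.15 (SE 0.566) had an adjusted p of 0.158 in the quasi-likelihood test of edgeR. It was −0.22 (adjusted p = 0.921, same test) without HRas control replicate 2 and −2.89 (adjusted p = 0.00308, same test) without HRas control replicate 3. Over 26 alternatives the adjusted p ranged from 1.2e-08 to 0.921, and 3 passed the threshold, each with HRas control replicate 2 in the fit.

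Of the 11 genes, 0 were called in neutrophils by the quasi-likelihood test of edgeR, where 8 of all tested genes were called higher (0.05%) and 16 lower (0.0999%). At an unadjusted p under 0.05 there were 3 of the 11, and DESeq2's Wald test also called 0. Nothing is read from the 3, as the share of all tested genes under that p is not given here. The median difference of the 11 genes was 0.01 against 0.04 over all genes. *tubb2b-39522* (−1.33) and *tuba1b* (−0.94) had the most negative differences after *tuba8l2*, and both followed HRas control replicate 2, without which they were −0.11 and 0.62. *tuba8l4* had the largest positive difference at 0.48, with 91.6, 99.0 and 70.9 CPM with HRasG12V and 57.3, 90.6 and 44.99 CPM with HRas control (adjusted p = 0.722, same test). *tuba1a* had 236, 216 and 232 CPM with HRasG12V and 152, 291 and 174 CPM with HRas control, and *tuba1c* had 196, 205 and 281 CPM with HRasG12V and 255, 275 and 309 CPM with HRas control. Both pairs of groups overlapped, with log2 differences of 0.16 and −0.31 (adjusted p = 0.963 and 0.905, same test). Without HRas control replicate 2 the differences were 0.60 for *tuba8l4*, 0.51 for *tuba1a* and −0.24 for *tuba1c*, with no call (adjusted p = 0.476, 0.521 and 0.847, same test). *tuba2*, an alpha tubulin outside the set, did not overlap between constructs, with 52.7, 50.8 and 65.8 CPM with HRasG12V and 72.7, 80.8 and 79.3 CPM with HRas control, yet its log2 difference of −0.46 was not called (adjusted p = 0.705, same test). Of all tested genes 5.1% were lower and 7.71% higher without overlap in neutrophils, against 0 of the 11. In the same comparison 5 of 21 photoreceptor genes were called lower, and the list summed to 93.0 to 119 CPM with HRasG12V and 158 to 350.2 CPM with HRas control. Genes of the neutrophil list moved too, among them *NCF1*, which the study shows with its macrophage genes. They summed to 33.8 to 74.2 CPM with HRasG12V and 4.94 to 26.4 CPM with HRas control, without overlap, and 2 of 9 were called higher, *NCF1* (2.40, adjusted p = 0.0359, same test) and *lyz* (1.94, adjusted p = 0.0378, same test). Erythroid genes summed to 22.2 to 30.6 CPM with HRasG12V and 9.10 to 17.9 CPM with HRas control. The part of these lists in the tubulin values was not tested.

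**Figure D4:**
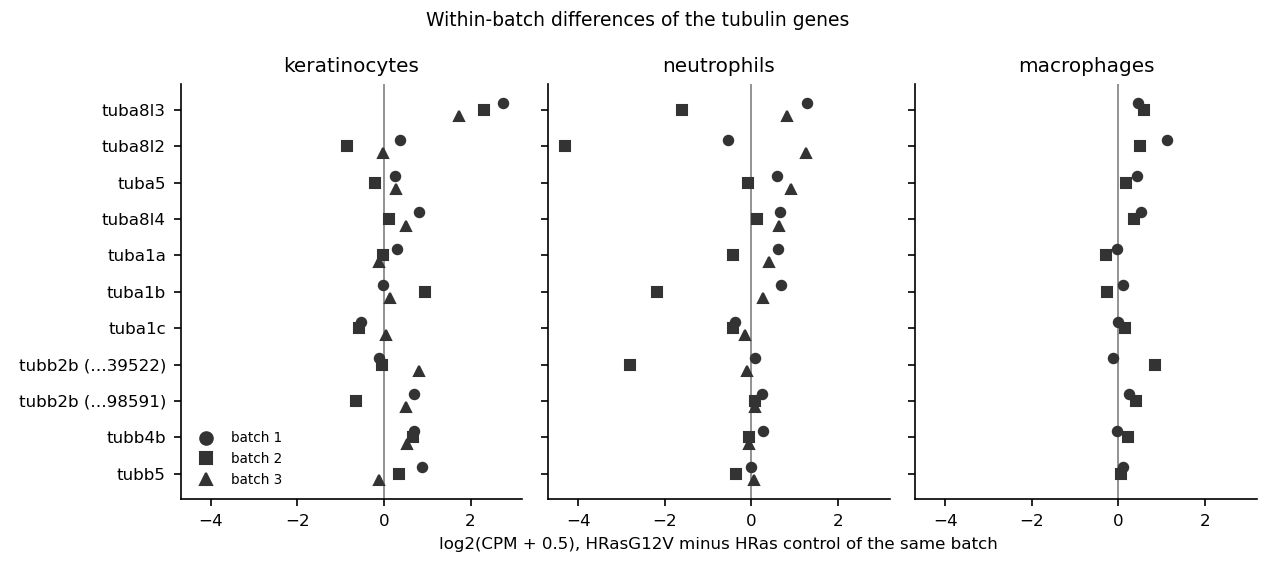
Difference of log2(CPM + 0.5) between the HRasG12V and the HRas control library of the same batch for 11 tubulin genes in keratinocytes, neutrophils and macrophages, where macrophages have batches 1 and 2. In keratinocytes the 3 symbols of *tuba8l3* lie between 1.73 and 2.74, and in neutrophils the batch 2 squares of *tuba8l2* (−4.31), *tubb2b-39522* (−2.80) and *tuba1b* (−2.17) lie far to the left.

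In macrophages, no tubulin gene was called. *tuba8l3* had 10.6, 10.54 and 7.89 CPM with HRasG12V and 7.56 and 6.83 CPM with HRas control, so that the 3 HRasG12V libraries lay just above both controls. Its log2 difference of 0.48 (95% interval −0.39 to 1.34) had an adjusted p of 1 in the quasi-likelihood test of edgeR. *tuba8l2* had 15.8, 22.2 and 8.22 CPM with HRasG12V and 6.96 and 15.6 CPM with HRas control, a difference of 0.79 (SE 0.602, adjusted p = 1, same test). *tuba1a* was the gene of the set that lay lower without overlap, with 127, 117 and 108 CPM with HRasG12V and 130 and 143 CPM with HRas control, and a difference of −0.22 (adjusted p = 1, same test). *tuba8l4* had 160, 188 and 67.2 CPM with HRasG12V and 110 and 146 CPM with HRas control, so its lowest and its highest macrophage libraries both carried HRasG12V. Over all tested genes, 9.58% lay higher and 8.98% lower without overlap in this comparison of 3 against 2 libraries, and among the 11 genes 1 did in each direction. The median over the 11 genes was 0.11, against 0.03 over all genes, and 0 of 11 were called in this comparison, where 0% of all tested genes were called. None of the 11 had an unadjusted p under 0.05, and DESeq2 called 0 of them. At an unadjusted p under 0.05 edgeR found 484 genes in macrophages, and DESeq2 called 1 gene. Keratinocyte genes summed to 2403 to 2973 CPM in these HRasG12V libraries and to 1512 to 1663 CPM with HRas control, with 0 of 22 called and 6 at an unadjusted p under 0.05. Muscle genes summed to 1344 to 1939 CPM with HRasG12V and 1048 to 1141 CPM with HRas control, with 0 of 22 called and 10 at an unadjusted p under 0.05. Their part in the tubulin values was not tested.

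The HRasG12V effect was also compared between neutrophils and macrophages. It differed for 2 of all tested genes (0.0125%) and for 0 of the 11 tubulin genes, of which 2 had an unadjusted p under 0.05 and 0 were called by DESeq2. The share of all tested genes under that unadjusted p is not given here, so nothing is read from it. The difference of effects was −0.47 for *tuba8l3* (95% interval −1.60 to 0.66, adjusted p = 1, the quasi-likelihood test of edgeR) and −2.94 for *tuba8l2* (SE 0.811, adjusted p = 0.488, same test). Without neutrophil HRas control replicate 2 these were 0.46 and −0.84 (adjusted p = 0.963 and 0.899, same test), and without neutrophil HRas control replicate 3 the value of *tuba8l2* was −3.54 (adjusted p = 0.0148, same test). Over 25 alternatives the adjusted p of *tuba8l2* ranged from 8.88e-08 to 1 and that of *tuba8l3* from 0.963 to 1.

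The order of *tuba8l3* over the 6 groups ran from HRasG12V keratinocytes at the top to HRas control keratinocytes at the bottom, with all leukocyte groups between. The means were 22.4 CPM in HRasG12V keratinocytes, 15.4 CPM in HRas control neutrophils, 13.45 CPM in HRasG12V neutrophils, 9.67 CPM in HRasG12V macrophages, 7.19 CPM in HRas control macrophages and 4.40 CPM in HRas control keratinocytes. HRas control neutrophils ranged from 5.21 CPM to 31.7 CPM in replicate 2, so their rank rests on that library. As *tuba8l3* was chosen on the keratinocyte contrast, the place of both keratinocyte groups is a description. In this order each of the first 3 groups overlapped with the next one. HRasG12V and HRas control macrophages did not overlap, and neither did HRas control macrophages and HRas control keratinocytes. *tuba8l2* had another order, with means of 57.9 CPM in HRas control neutrophils, 25.5 CPM in HRas control keratinocytes, 21.0 CPM in HRasG12V keratinocytes, 15.4 CPM in HRasG12V macrophages, 11.3 CPM in HRas control macrophages and 7.74 CPM in HRasG12V neutrophils. Each of these groups overlapped with the next, and the top mean rests on replicate 2.

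Cell types were compared with both constructs weighted equally. Of the 11 genes, 5 were called lower and 0 higher in keratinocytes than in the mean of neutrophils and macrophages, where 4.58% of all tested genes were called lower and 5.28% higher. The 11 include *tuba8l3*, which was not called and whose value carries no test, as it was chosen on its keratinocyte libraries. The median log2 difference of the set was −0.59, against −0.05 over all genes. *tuba1c* differed most. It had 46.0 to 96.3 CPM (median 80.6) in the 6 keratinocyte libraries, against 196 to 309 CPM (median 265) in 6 neutrophil and 96.6 to 128 CPM (median 114) in 5 macrophage libraries, and its keratinocyte range lay below every neutrophil and macrophage library. The log2 difference was −1.19 (SE 0.162, adjusted p = 3.04e-06, the quasi-likelihood test of edgeR). *tubb2b-98591* had 21.3 to 36.2 CPM in keratinocytes, 57.8 to 81.2 CPM in neutrophils and 28.02 to 59.4 CPM in macrophages, with a log2 difference of −0.94 (SE 0.171, adjusted p = 0.000267, same test). *tubb5* differed by −0.70 (adjusted p = 0.00866), *tuba1a* by −0.66 (adjusted p = 0.00474) and *tuba8l4* by −0.59 (adjusted p = 0.0137, same test for each). For each of them keratinocyte and macrophage libraries overlapped. *tubb5* had 31.05 to 57.05 CPM in keratinocytes, 34.1 to 61.1 in macrophages and 78.9 to 136 in neutrophils. *tuba1a* had 87.5 to 123 CPM in keratinocytes, 108 to 142.5 in macrophages and 152 to 291 in neutrophils. *tuba8l4* had 44.8 to 79.2 CPM in keratinocytes, 67.2 to 188 in macrophages and 44.99 to 99.0 in neutrophils. *tuba2*, outside the set, was also lower, with 23.4 to 27.8 CPM in keratinocytes against 50.8 to 80.8 CPM in neutrophils and 24.8 to 36.2 CPM in macrophages (log2 difference −0.87, adjusted p = 0.000117, same test).

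The calls of *tuba1c*, *tubb2b-98591* and *tuba1a* held with each library left out in turn, and that of *tuba1a* was lost with all 18 libraries (adjusted p = 0.128, the quasi-likelihood test of edgeR) or the HRas control libraries alone (0.0936). The call of *tuba8l4* was lost without keratinocyte HRasG12V replicate 2 (adjusted p = 0.0639, the quasi-likelihood test of edgeR) or keratinocyte HRas control replicate 1 (0.0696). It was also lost with all 18 libraries (0.184) or the HRas control libraries alone (0.133), and over 26 alternatives its adjusted p ranged from 0.00214 to 0.184. *tubb5* lost its call without keratinocyte HRasG12V replicate 2 (adjusted p = 0.0501, same test) or keratinocyte HRas control replicate 2 (0.0696), and with all 18 libraries (0.0635). Its range was 0.00054 to 0.0696 over the alternatives. The difference of *tuba8l3* was −0.16 (SE 0.254) over both constructs, and −0.32 to 0.07 with each library left out. It averages HRasG12V and HRas control keratinocytes, with means of 22.4 and 4.40 CPM. It therefore does not show that levels were alike in keratinocytes and leukocytes. Among HRas control libraries alone the difference of *tuba8l3* was −1.20. None of these values carries a test, as the gene was chosen on its keratinocyte libraries. *tuba8l2* and *tuba5* had positive differences. That of *tuba5* was 0.22 (SE 0.158, adjusted p = 0.456, same test). The value of *tuba8l2* was 0.78 (SE 0.332, adjusted p = 0.145, same test) and 1.23 (adjusted p = 9.7e-05, same test) without neutrophil HRas control replicate 2. The other 5 neutrophil libraries had 2.60 to 12.9 CPM and the keratinocyte libraries 15.6 to 39.6 CPM. The 5 macrophage libraries had 6.96 to 22.2 CPM and overlapped with the keratinocyte libraries. The adjusted p of *tuba8l2* ranged from 9.7e-05 to 0.726 over the alternatives. As *tuba8l2* was taken by identifier under the same rule as *tuba8l3*, these p-values are a description.

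**Figure D5:**
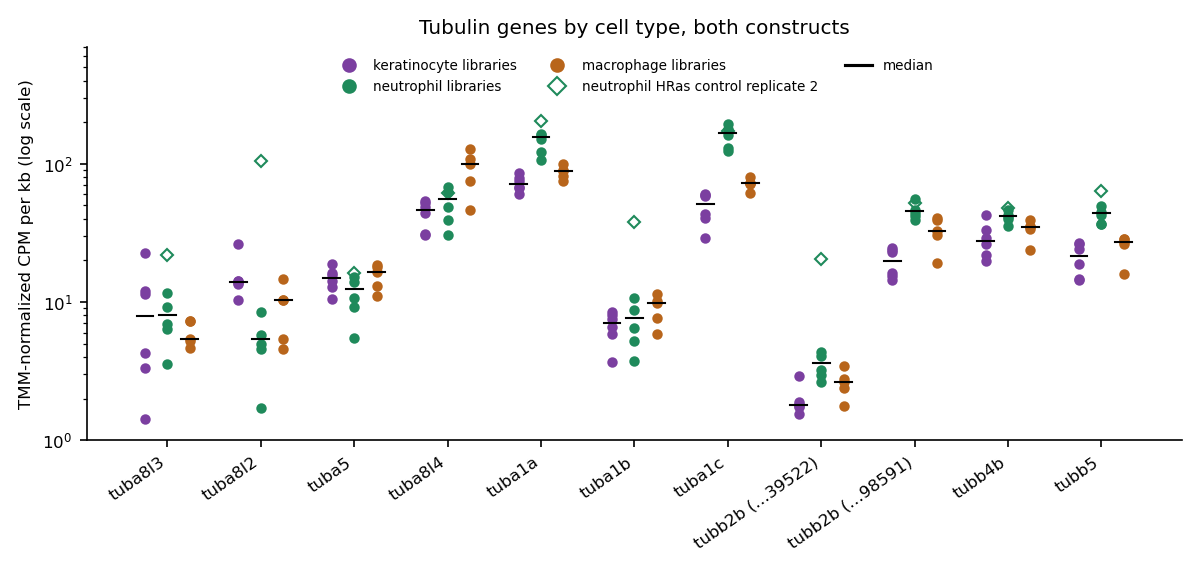
TMM-normalized CPM per kb, on a log scale, of the 11 tubulin genes in 6 keratinocyte, 6 neutrophil and 5 macrophage libraries of both constructs, with a line at the median and an open diamond for neutrophil HRas control replicate 2. *tuba1a* and *tuba1c* are the highest isotypes in neutrophils (medians 156 and 168 CPM per kb). *tuba8l4* has the highest median in macrophages (100 CPM per kb), where its libraries overlap with those of *tuba1a*.

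Neuronal genes were lower in the same libraries. Of 21 neuronal genes tested, 16 were called lower and 1 higher in keratinocytes, with a median log2 difference of −0.71. They summed to 480.3 to 715 CPM in keratinocyte, 968 to 1379 CPM in neutrophil and 672 to 918 CPM in macrophage libraries. *CKB*, the brain creatine kinase gene, differed by −1.19 (adjusted p = 6.19e-06, the quasi-likelihood test of edgeR) and *STMN2*, which encodes a tubulin-binding protein of growing axons, by −0.83 (adjusted p = 0.000478, same test). The part of neuronal mRNA in the tubulin levels was not tested. Among the microtubule genes, *STMN1*, a tubulin-binding destabilizer, differed by −1.02 (adjusted p = 0.000398, same test), and 3 of 17 genes for nucleation and ends, 4 of 14 for associated proteins and motors and 2 of 15 for tubulin-modifying enzymes were called lower with 0 called higher. None of the 22 folding genes was called, although 18 had a negative difference and 4 an unadjusted p under 0.05.

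Between the leukocytes, the isotypes split. In neutrophils 3 of the 11 genes were called higher than in macrophages and 1 lower, where 1.24% of all tested genes were called higher and 3.42% lower. The median log2 difference was 0.64, against −0.02 over all genes. *tubb2b-39522* had the largest positive value of the set, 1.14 (SE 0.348), and just missed the threshold (adjusted p = 0.0508, the quasi-likelihood test of edgeR). It passed in 11 of 26 alternatives (adjusted p 0.00642 to 0.548) and was 0.44 (adjusted p = 0.548, same test) without neutrophil HRas control replicate 2. *tuba1c* was higher by 1.08 on the log2 scale (SE 0.189, adjusted p = 0.000223, the quasi-likelihood test of edgeR), with no neutrophil library within the macrophage range, and it was called in all 26 alternatives. *tubb5* had 78.9 to 136 CPM in neutrophils and 34.1 to 61.1 CPM in macrophages, a difference of 0.83 (adjusted p = 0.0134, same test). *tuba1a* had 152 to 291 CPM in neutrophils and 108 to 143 CPM in macrophages, a difference of 0.77 (adjusted p = 0.00927, same test). Without neutrophil HRas control replicate 2 the differences were 0.68 for *tubb5* and 0.57 for *tuba1a*, and neither was called (adjusted p = 0.0596 and 0.0704, same test). The call of *tuba1a* was also lost without either macrophage HRas control library (adjusted p = 0.0741 and 0.0779, same test), and that of *tubb5* without either of them (0.0686 and 0.11) or macrophage HRasG12V replicate 3 (0.0679). The adjusted p ranged from 0.000164 to 0.474 for *tuba1a* and from 0.00189 to 0.293 for *tubb5* over 26 alternatives. *tuba8l3* was not called, at 0.75 (SE 0.292, adjusted p = 0.162, same test) over all libraries and 0.24 without neutrophil HRas control replicate 2. It passed the threshold without neutrophil HRas control replicate 1 (adjusted p = 0.0324, same test), in 1 of 26 alternatives, which ranged from 0.0324 to 0.73.

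*tuba8l4* ran the other way. It had 44.99 to 99.0 CPM in neutrophils, against 67.2 to 188 CPM in macrophages, and its lowest macrophage library, HRasG12V replicate 3, lay among the neutrophils. The log2 difference was −0.71 (SE 0.184, adjusted p = 0.0165, the quasi-likelihood test of edgeR). It passed the threshold in 18 of 26 alternatives (adjusted p 0.00163 to 0.294) and was lost without either macrophage HRas control library (0.0694 and 0.139), without macrophage HRasG12V replicate 1 or 2 (0.0738 and 0.056), and without neutrophil HRasG12V replicate 2 (0.0615) or HRas control replicate 1 (0.0564). Outside the set *tuba2* was higher in neutrophils, by 1.01 (adjusted p = 0.000223, same test), and called in all 26 alternatives. Neuronal genes were higher in neutrophil than in macrophage libraries for all 21 tested, with 7 called, among them *gap43*, a growth cone gene, at 1.25 (adjusted p = 2.69e-05, same test). Their part in these tubulin differences was not tested.

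Per length the isotype with the highest mean differed among the pull-downs, and in both leukocyte types also between constructs. In keratinocytes *tuba1a* averaged 72.5 ± 9.14 CPM per kb, *tuba1c* 48.6 ± 12.95 and *tuba8l4* 43.4 ± 10.4 (SD, n = 6). In neutrophils *tuba1c* averaged 160 ± 28.1 CPM per kb and *tuba1a* 151 ± 34.2 (SD, n = 6), and their libraries overlapped. In macrophages *tuba8l4* averaged 91.8 ± 32.0 CPM per kb, *tuba1a* 86.8 ± 9.18 and *tuba1c* 71.7 ± 7.02 (SD, n = 5), again with overlap. By construct, *tuba1a* had the highest mean in HRasG12V neutrophils, with 158.5 CPM per kb against 143.9 for *tuba1c*. It also had the highest mean in HRas control macrophages, with 94.75 CPM per kb against 87.69 for *tuba8l4*. The mean over both constructs for *tuba8l3* was 9.22 ± 7.95 CPM per kb over keratinocyte libraries, 9.91 ± 6.40 over neutrophil and 5.96 ± 1.21 over macrophage libraries. Without neutrophil HRas control replicate 2 its neutrophil mean was 7.545 ± 3.025 CPM per kb. The *tuba1* genes together held 72.5% to 78.5% of the alpha tubulin sum in HRasG12V neutrophils and 60.8% to 82.4% in HRas control neutrophils, against 48.8% to 65.0% in HRasG12V macrophages and 56.0% to 60.8% in HRas control macrophages. Summed alpha tubulin was 193 to 239 CPM per kb in keratinocytes, 355 to 681 in neutrophils and 219 to 352 in macrophages. The bounds of 60.8% in HRas control neutrophils and 681 CPM per kb belong to neutrophil HRas control replicate 2.

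The genes whose levels followed *tuba8l3* most closely over the 17 libraries were not tubulins. Among 8707 other genes averaging 20 counts or more, Pearson's r of log2(CPM + 0.5) was highest for *TLK1* (0.808), a Tousled-like kinase gene, and for *TARS1* (0.799) and *AARS1* (0.796), which encode threonyl- and alanyl-tRNA synthetases. *MTA3* (0.792), *tpm4a* (0.784), a tropomyosin gene, and *FAM177A1* (0.778) followed. *tpm4a* alone among these had a keratinocyte difference near that of *tuba8l3*, with 2.1 on the log2 scale, and the others had 0.52 to 0.95. Without neutrophil HRas control replicate 2 the 6 values lay between 0.722 and 0.797. These correlations are descriptions over libraries that share batches and include the contrast that chose the gene.

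Within the tubulin family *tubb4b* followed *tuba8l3* most closely (r = 0.544 over 17 libraries, 0.471 without neutrophil HRas control replicate 2). *tuba8l5* had r = 0.534, which became 0.343 without that library. It was close to the floor in keratinocytes, with 13.2, 6.68 and 3.39 expected counts with HRasG12V and 4.16, 0 and 0 with HRas control. *tuba8l2* had r = 0.298 with *tuba8l3* and −0.018 without that library, *tuba1a* had 0.385 and 0.202, and *tuba1c* had 0.047 and −0.124. RSEM divides a read that fits several genes among them, and the coding sequences of tubulin genes are alike. The expected count of *tuba8l3* exceeded a whole number by more than 0.005 in 13 of 17 libraries, that of *tuba8l4*, *tuba1a* and *tuba1c* in all 17 and that of *tubb2b-39522* in 4, so part of these levels rests on divided reads. Which genes shared them was not tested.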

How the data were processed

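Single-end TRAP-seq reads were aligned to GRCz10 with Bowtie 1.1.1 and quantified with RSEM 1.2.20 by the authors, and the deposited expected counts are estimates that divide reads shared among genes. The expected counts were rounded. The other column used, the effective length deposited by the authors in bases, served only for CPM per kb. The annotation release is not given in the sources used here.

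Counts of 17 libraries were filtered with filterByExpr, scaled by TMM and fitted in 1 quasi-likelihood model with edgeR 4.0.16 in R 4.3.3, with 6 groups and the replicate number as a block, as in the study. The labels give that number as the batch. The deviations of the 8 same-numbered pairs of libraries of a cell type from their group means correlated between −0.08 and 0.306 (median 0.09, 8708 genes). The Benjamini-Hochberg adjustment ran over all 16011 genes, with a threshold of 0.05. Except in macrophages, counts at an unadjusted p under 0.05 are given without the count over all genes, and nothing is read from them. Fold changes used a prior count of 0.125, intervals are 1.96 standard errors, and only spread between pools of larvae is measured. Standard errors were back-calculated, as the fitted difference without prior count divided by the square root of the test's F statistic. They and the intervals are therefore approximate, above all for genes with few counts. The fit was also run on simulated counts with changes planted in neutrophil HRasG12V libraries. These held no differences among cell types or batches and no library that stood apart, so they do not check the fit for such cases.

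The genes, gene lists and tests were chosen with earlier results of these data known. Further tubulins were named if called or above a mean of 50 CPM, list genes if called (at most 4) or as the 2 highest, and the 6 genes most correlated with *tuba8l3* were named. *tubg1*, *tuba8l5*, *tubb4bl*, *tuba4l* and *tuba7l* were named after their values were seen. *mpx* was not analysed here. Alternatives were DESeq2 1.42.0 and its size factors, other filters, no replicate block, all 18 libraries, a prior count of 2, unrounded counts, each library left out, 1 cell type alone and HRas control libraries alone.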

Additional observations from a re-analysis of the deposited data

How the results depend on the processing

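The *tuba8l3* difference in HRasG12V keratinocytes (2.32) lay between 2.27 and 2.36 under the alternatives that kept its libraries, with 2.34 when the replicate block was dropped, and between 2.06 and 2.57 with each library left out. The replicate block, which pairs libraries of 1 batch, moved only the count for the difference of effects by over 1.5 times. Without it 28 genes in keratinocytes, 19 in neutrophils, 0 in macrophages and 0 for the difference of effects were called, against 42, 24, 0 and 2 with it.

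Keeping all genes with at least 1 count called 94 genes in keratinocytes, 112 in neutrophils, 13 in macrophages and 40 for the difference of effects, and 1 tubulin gene (*tuba8l2*) higher in keratinocytes than in leukocytes. A mean of at least 50 counts gave 13 genes in neutrophils, 0 for the difference of effects and 1050 between keratinocytes and leukocytes (1579 in the fit reported). DESeq2's test called 66 genes in neutrophils, 1 in macrophages and 8 for the difference of effects, and its size factors in edgeR also gave 8. All 18 libraries gave 42 genes in neutrophils and 13 for the difference of effects, with 2 tubulin genes lower in keratinocytes and 0 lower in neutrophils than in macrophages. Fits of 1 cell type alone called 1 gene in neutrophils and 249 in macrophages. HRas control libraries alone gave 454 genes between keratinocytes and leukocytes (3 tubulins lower) and 209 between neutrophils and macrophages (747 in the fit reported), with 1 tubulin higher and 0 lower.

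With each library left out, calls ranged from 20 to 52 genes in keratinocytes, 2 to 35 in neutrophils, 0 to 0 in macrophages, 0 to 11 for the difference of effects, 984 to 1872 between keratinocytes and leukocytes and 356 to 830 between neutrophils and macrophages. Tubulin genes numbered 0 to 1 higher and 3 to 6 lower in keratinocytes than in leukocytes, and 1 to 5 higher and 0 to 1 lower in neutrophils than in macrophages.

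In neutrophils the HRasG12V difference of *tuba8l3* (0.01) was −0.02 with a mean of at least 50 counts, −0.24 without the replicate block and −0.00 with DESeq2's size factors, and −0.45 to 0.87 with each library left out. The same ranges were −0.02 to 0.51 for *tuba1a*, −1.50 to 0.62 for *tuba1b*, −0.12 to 0.16 for *tubb4b* and −0.27 to 0.15 for *tubb5*. For *tuba8l3* they were −0.97 to 0.46 for the difference of effects and −0.32 to 0.07 between keratinocytes and leukocytes. Between neutrophils and macrophages they were −0.48 to 0.90 for *tuba8l2* and −0.45 to 0.69 for *tuba1b*. The bounds 0.87, 0.51, 0.62, 0.15, 0.46, 0.07, −0.48 and −0.45 were reached without neutrophil HRas control replicate 2, and the cause was not tested. Leaving 1 macrophage HRas control library assumes that it varies like the other groups. Low counts limit *tuba8l3* in HRas control keratinocytes and *tuba8l5* and *tubb2b-39522* in keratinocytes.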
